A study of Mus musculus with 6 samples.

Results

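The genes described here are 38 genes of the cardiomyocyte contractile apparatus and of its calcium cycle, read in the RNA of cardiac fibroblasts (CFs) from mouse hearts. They were taken by symbol from a count table of 49548 genes, and all 38 symbols have a row in it. No measured value entered the choice by symbol, although the list was drawn up with earlier results of these libraries known. By role, 8 belong to the thick filament, 4 to the thin filament, 13 to titin, the Z-disc and the M-band, 7 to calcium handling, 2 are natriuretic peptide genes and 4 serve energy supply and oxygen storage. The question was whether this set differs between CFs of WT and CharmeKO mice.

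The libraries come from native CFs of C57BL/6J mice aged 5 weeks, with 3 WT and 3 CharmeKO samples. CharmeKO mice carry a polyadenylation signal inserted into the locus of *Charme*, a long non-coding RNA of cardiac muscle, in every cell of the animal, so a difference in CFs cannot be assigned to the loss of the transcript within CFs. Native CFs were obtained with a heart dissociation kit meant to yield cells other than cardiomyocytes, red cell lysis and magnetic depletion of hematopoietic lineages, and the sample labels additionally list a culture medium on coated plates. Poly(A) RNA was sequenced in directional libraries with 42101393, 27935496 and 9595701 counted reads in WT replicates 1, 2 and 3, and with 26884439, 23550718 and 31048606 in CharmeKO replicates 1, 2 and 3. Values below are in CPM, the count scaled to a common library size after TMM normalization, in that same order of libraries. A count of 0 allows 3 counts, which is 0.0705 CPM in the deepest library and 0.323 CPM in the shallowest, and covers counting error only. *Charme* itself had 26, 15 and 4 counts in WT and 7, 0 and 0 counts in CharmeKO. Nothing in the labels says whether each library is 1 heart, so p-values measure the spread between these samples.

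The libraries also split by sex-linked transcripts, a split that crosses the genotypes. *Xist*, the transcript of the inactive X chromosome, stood at 395, 2.55 and 0 CPM in WT and at 473, 376 and 0.296 CPM in CharmeKO, whereas 4 Y-linked genes (*Ddx3y*, *Kdm5d*, *Eif2s3y*, *Uty*) summed to 0, 113 and 95.3 CPM in WT and to 4.75, 0 and 95.9 CPM in CharmeKO. WT replicate 1 and CharmeKO replicates 1 and 2 therefore carry *Xist*, the other 3 libraries carry Y-linked RNA, and CharmeKO replicate 1 also holds a trace of Y-linked RNA. The defining markers of fibroblasts were abundant in each library: all 7 were tested, and their summed level was between 11310 and 13910 CPM in WT and between 9630 and 12400 CPM in CharmeKO.

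In a cardiomyocyte, calcium that enters through the surface membrane opens the ryanodine receptor of the sarcoplasmic reticulum, and the calcium released binds troponin C on the thin filament, which lets myosin heads of the thick filament pull on actin. Relaxation follows when the SERCA pump, restrained by phospholamban, returns calcium to the store. Titin spans the sarcomere from Z-disc to M-band, and myoglobin and creatine kinases serve the oxygen and energy demand of the contraction. Fibroblasts build no sarcomeres, so in a fibroblast preparation most of these transcripts are usually read as RNA left by muscle cells. *Atp2a2* is an exception, because its SERCA2b form is made by nearly all cells. Whether other members also come from other cells of these preparations was not tested. In bulk RNA, more cells of a type and more RNA per cell cannot be told apart.

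The stretches before the start sites of 6 of these genes are shown because many muscle genes share short boxes there, and because these 6 include the genes that passed the test and 2 abundant ones that lay near 0. *Tnni3*, *Mb* and *Myh6* passed the test between the genotypes, *Tnnt2* came next by p-value, and *Actc1* and *Casq2* are the others; the choice was made after their values were seen. Each run is the 250 bases before the RefSeq start on GRCm38.p6, read 5′ to 3′ on the gene's strand, at chr7:4522529-4522778 (minus strand), chr14:54966608-54966857 (minus), chr15:77022728-77022977 (minus), chr1:135836084-135836333 (plus), chr2:114052876-114053125 (minus) and chr3:102086165-102086414 (plus). Capitals mark an MCAT box (CATTCC, or GGAATG when it lies on the other strand) in *Myh6* and *Tnnt2*, a CArG box in *Actc1* and a MEF2 box in *Casq2*, and no capitals mean that none of the searched boxes was found.
Tnni3: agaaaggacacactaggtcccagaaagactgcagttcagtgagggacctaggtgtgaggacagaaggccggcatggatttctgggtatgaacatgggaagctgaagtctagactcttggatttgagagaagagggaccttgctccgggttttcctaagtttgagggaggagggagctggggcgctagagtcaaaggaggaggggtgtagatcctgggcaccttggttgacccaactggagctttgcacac
Myh6: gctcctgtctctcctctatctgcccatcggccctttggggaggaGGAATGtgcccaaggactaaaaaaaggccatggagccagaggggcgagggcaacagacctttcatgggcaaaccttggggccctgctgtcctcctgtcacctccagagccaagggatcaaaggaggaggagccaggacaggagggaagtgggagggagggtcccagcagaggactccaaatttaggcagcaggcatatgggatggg
Mb: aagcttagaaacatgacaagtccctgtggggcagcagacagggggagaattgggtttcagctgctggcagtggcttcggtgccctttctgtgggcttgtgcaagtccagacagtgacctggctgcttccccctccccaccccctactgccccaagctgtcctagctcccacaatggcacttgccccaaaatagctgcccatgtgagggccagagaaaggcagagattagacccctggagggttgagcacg
Tnnt2: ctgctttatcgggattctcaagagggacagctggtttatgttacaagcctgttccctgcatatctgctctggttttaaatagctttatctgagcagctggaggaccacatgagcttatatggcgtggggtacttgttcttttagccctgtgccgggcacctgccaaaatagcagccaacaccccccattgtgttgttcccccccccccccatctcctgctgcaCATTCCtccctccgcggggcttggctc
Actc1: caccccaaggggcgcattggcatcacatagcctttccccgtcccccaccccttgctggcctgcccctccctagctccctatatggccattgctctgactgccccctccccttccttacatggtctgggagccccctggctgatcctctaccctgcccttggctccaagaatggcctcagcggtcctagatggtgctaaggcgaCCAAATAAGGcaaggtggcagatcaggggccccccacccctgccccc
Casq2: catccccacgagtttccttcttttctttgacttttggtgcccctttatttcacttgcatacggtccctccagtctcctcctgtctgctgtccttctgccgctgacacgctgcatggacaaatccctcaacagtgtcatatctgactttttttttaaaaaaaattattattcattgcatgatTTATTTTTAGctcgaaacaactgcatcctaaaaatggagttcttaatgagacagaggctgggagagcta

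Of the 38 genes, 32 had such a window in the RefSeq table. The MCAT box was found on either strand in 8 of them (25.0%), against 12.6% of all 32851 windows, in *Ankrd1*, *Myh6*, *Myh7*, *Myl3*, *Myl7*, *Nppb*, *Tnnc1* and *Tnnt2*. The CArG box, the site of serum response factor, was found in 5 (15.6%), against 1.47% of all windows, in *Actc1*, *Ldb3*, *Myl3*, *Myl7* and *Myom1*. The MEF2 box was found in *Casq2*, *Mybpc3*, *Myoz2*, *Ttn* and *Xirp2*, also 15.6%, against 2.92%. The TATA box, searched as TATAAA on the sense strand alone, was found in *Nppa*, *Nppb* and *Pln* (9.38%), against 7.59%. Among the 3 genes that passed the test between the genotypes, *Myh6* alone held one of these boxes. These are matches of letters in a short window and describe neither binding nor control.

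The 38 genes together took a small share of each library. They made up 0.115% (95% Wilson interval 0.114 to 0.116), 0.0965% (0.0954 to 0.0977) and 0.108% (0.106 to 0.111) of the counts in WT, and 0.178% (0.177 to 0.180), 0.143% (0.142 to 0.145) and 0.121% (0.120 to 0.122) in CharmeKO. These intervals cover counting error only, and those of the WT libraries already exclude each other. All 3 CharmeKO libraries lay above all 3 WT libraries, with CharmeKO replicate 3 nearest to WT. In normalized levels the sums were 1134, 1026 and 1119 CPM in WT and 1673, 1380 and 1233 CPM in CharmeKO, a ratio of the means of 1.31. *Atp2a2* alone gave 337, 348 and 374 CPM of this in WT and 357.5, 315 and 345 CPM in CharmeKO. Without it the sums were 797, 678 and 745 CPM in WT and 1315, 1066 and 888 CPM in CharmeKO, a ratio of 1.47 that was 1.32 without CharmeKO replicate 1. No test was made on a sum over chosen genes.

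**Figure D1:**
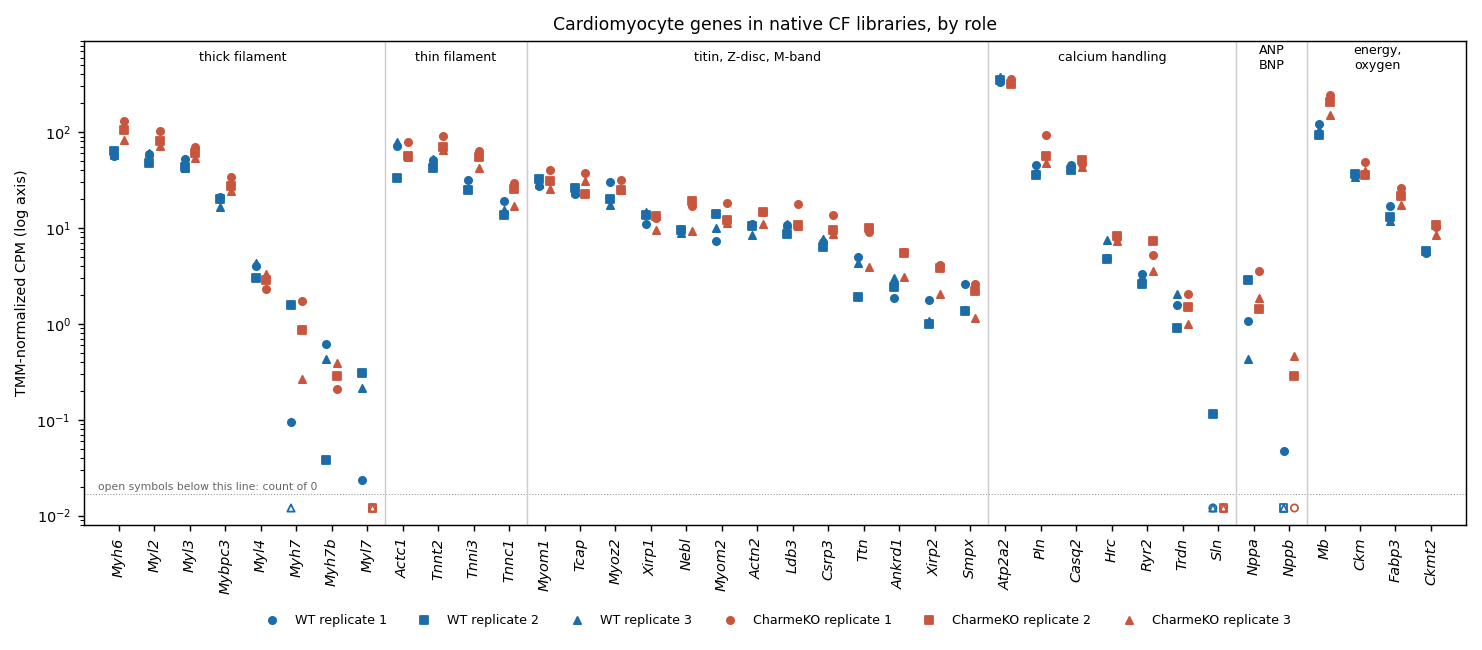
TMM-normalized CPM (log axis) of the 38 genes in the 3 WT libraries (blue) and the 3 CharmeKO libraries (red), ordered by role and then by level, with 1 symbol shape per replicate number and open symbols at the bottom for a count of 0. *Mb*, *Tnni3* and *Myh6* show all red symbols above all blue ones, whereas *Atp2a2*, the highest gene, shows both colours together.

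Levels of the genes were compared with each other per kilobase of exon, where the length joins all annotated exons of a gene over all its transcripts. Averaged over the 6 libraries, *Mb* had 102.8 CPM per kb, *Atp2a2* 56.9, *Actc1* 38.3, *Myl2* 36.1, *Tcap* 28.9 and *Myl3* 26.3 CPM per kb. By this length, *Actc1* and *Myl2* had 37.7 and 28.6 CPM per kb in WT and 39.0 and 43.5 CPM per kb in CharmeKO. The longest transcript of *Myl2* has 889 bases against 1.95 kb of exon, and that of *Actc1* has 1473 bases against 1.618 kb. Whether their order turns between the genotypes therefore depends on the length used. Titin, whose exons add up to 117 kb, stood at 0.0487 CPM per kb, and *Ryr2*, with 28.8 kb, at 0.146 CPM per kb. Even the highest of the 38 in plain CPM, *Atp2a2*, ranked 423rd among the tested genes.

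A gene was tested when at least 10 counts were found in at least 2 of the 6 libraries, which 15789 genes fulfilled, and a gene was called when the Benjamini-Hochberg adjusted p of edgeR's quasi-likelihood test over all of them was under 0.05. Of the 38 genes, 35 were tested, and none of the 35 reached 10 counts in 1 genotype alone. *Tnni3*, *Mb* and *Myh6* were higher in CharmeKO and no member was lower, that is 3 of 35 against 0.418% of all tested genes called higher and 0.412% called lower (0.83% in either direction). The DESeq2 test called 7 members, against 2.5% of the tested genes, and edgeR without a gene filter 13 of 38, against 2.84% of the 24579 genes with any count, all of them higher in CharmeKO. At an unadjusted p under 0.05, 19 of the 35 were higher and 0 lower, against 5.9% and 6.87% of all tested genes. The 3 CharmeKO libraries all lay above the 3 WT libraries for 15 of the 35 and below them for 0, against 9.57% and 8.59% of all tested genes. The fold change was positive for 31 of the 35, against 51.2% of all tested genes, and the median was 0.56 on the log2 scale (range -0.41 to 1.33) against 0.0096 over all tested genes. The genes share libraries and may share a source of RNA, so they are not independent of each other.

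**Figure D2:**
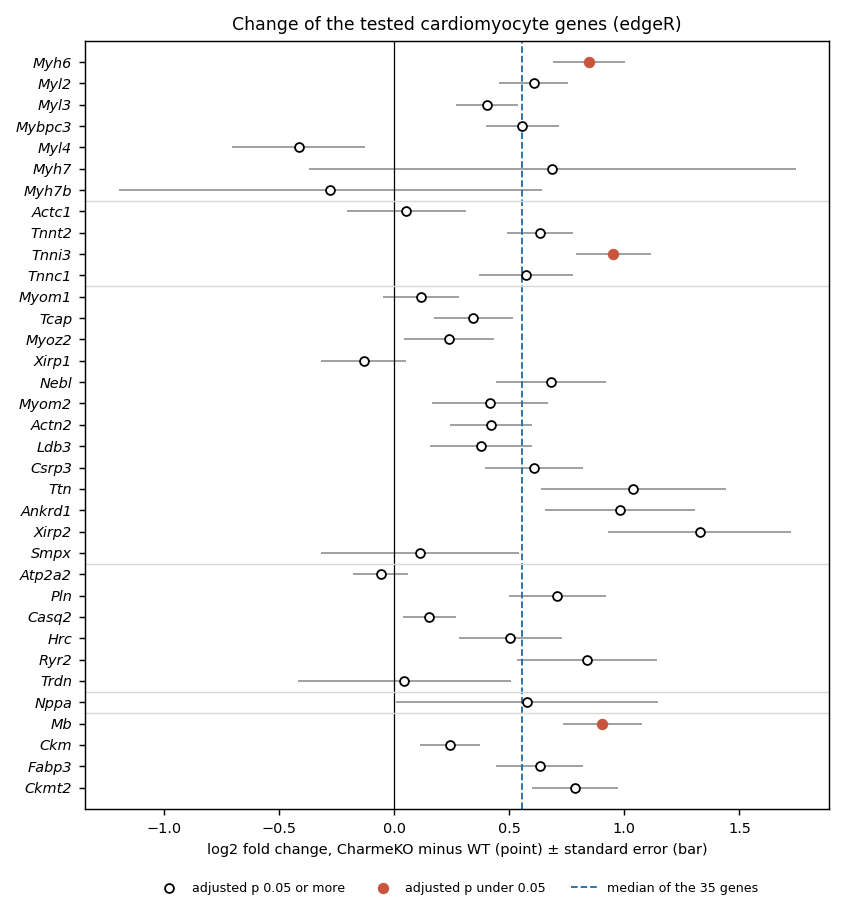
Log2 fold change, CharmeKO minus WT, of the 35 tested genes by role (points) with its standard error (bars), from edgeR; filled points are the 3 genes with an adjusted p under 0.05. The dashed line marks the median of 0.56, and *Atp2a2*, *Actc1*, *Casq2*, *Trdn*, *Smpx*, *Myom1* and *Xirp1* lie near 0.

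In the thick filament, the heavy chain of the adult ventricle rose and the light chains gave smaller differences. *Myh6* (ENSMUSG00000040752), the fast alpha myosin heavy chain of the adult mouse heart, had 56.4, 63.2 and 57.9 CPM in WT and 131, 105.5 and 82.2 CPM in CharmeKO. The groups did not overlap, and the means were 59.1 ± 3.57 and 106.3 ± 24.5 CPM (SD, n = 3 each). Its log2 fold change was 0.85 ± 0.16 (SE; edgeR, adjusted p = 0.0292). With a term for the *Xist* and Y-linked split the log2 fold change was 0.76 (edgeR, adjusted p = 0.0890). Leaving out WT replicate 1, WT replicate 3, CharmeKO replicate 1 or CharmeKO replicate 2 gave 0.81, 0.83, 0.67 and 0.85, with adjusted p-values in edgeR of 0.129, 0.124, 0.131 and 0.128. Of the 50-base stretches of the *Myh6* transcript, 22.6% also occur in another gene, chiefly *Myh7*, so that a read lying within a stretch shared with *Myh7* does not tell these 2 heavy chains apart.

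*Myl2*, the regulatory light chain of the ventricle, had 59.6, 47.2 and 60.7 CPM in WT and 102.4, 80.1 and 72.0 CPM in CharmeKO, again without overlap (log2 fold change 0.61 ± 0.15 SE; edgeR, adjusted p = 0.118). *Myl3*, the essential light chain of the ventricle, had 52.8, 43.6 and 42.0 CPM in WT against 69.4, 60.7 and 53.4 CPM in CharmeKO (0.40 ± 0.13 SE; adjusted p = 0.250 in edgeR). *Mybpc3*, the cardiac myosin binding protein C, had 21.3, 19.9 and 16.7 CPM in WT and 34.2, 27.4 and 24.1 CPM in CharmeKO (0.56 ± 0.16 SE; edgeR, adjusted p = 0.179). For these 3 genes all CharmeKO libraries lay above all WT libraries, while the adjusted p stayed over the threshold.

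The remaining thick filament genes were low. *Myh7*, the slow beta heavy chain of fetal and stressed ventricle, had 4, 41 and 0 counts in WT and 50, 21 and 8 counts in CharmeKO, with overlapping groups and a log2 fold change of 0.69 ± 1.06 (SE; adjusted p = 0.839 in edgeR). *Myh7b*, a further slow myosin, had between 1 and 26 counts in each library (-0.28 ± 0.92 SE; adjusted p = 0.929 in edgeR). *Myl4*, the essential light chain of the atria, pointed the other way, with 4.04, 3.01 and 4.30 CPM in WT and 2.31, 2.86 and 3.29 CPM in CharmeKO (-0.41 ± 0.29 SE; edgeR, adjusted p = 0.597). *Myl7*, the regulatory light chain of the atria, was too low to be tested, with 1, 8 and 2 counts in WT and 0 in each CharmeKO library.

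In the thin filament, all 3 troponin subunits had positive differences, and cardiac actin did not separate the genotypes. *Tnni3* (ENSMUSG00000035458), the inhibitory troponin subunit of the adult heart, had 32.1, 25.2 and 25.4 CPM in WT and 63.9, 54.9 and 42.0 CPM in CharmeKO. No library overlapped, the means were 27.5 ± 3.90 and 53.6 ± 11.0 CPM (SD, n = 3 each), and the log2 fold change was 0.95 ± 0.16 (SE; edgeR, adjusted p = 0.0200). With the term for the *Xist* and Y-linked split edgeR gave a log2 fold change of 0.81 and an adjusted p of 0.0131. When WT replicate 3, CharmeKO replicate 1 or CharmeKO replicate 2 was left out, the log2 fold changes were 0.90, 0.81 and 0.94, with adjusted p-values in edgeR of 0.0944, 0.131 and 0.105. *Tnnt2*, the subunit that ties troponin to tropomyosin, had 51.1, 42.2 and 52.5 CPM in WT and 90.8, 69.7 and 65.3 CPM in CharmeKO (0.63 ± 0.14 SE; edgeR, adjusted p = 0.0875). *Tnnc1*, the calcium-binding subunit, had 19.0, 13.8 and 15.3 CPM in WT and 29.5, 25.4 and 16.9 CPM in CharmeKO, where the last value lay below that of WT replicate 1 (0.57 ± 0.20 SE; adjusted p = 0.279 in edgeR).

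*Actc1*, the sarcomeric actin of the heart, varied mostly within the genotypes. Per kilobase of all annotated exons it had 38.3 CPM per kb, against 7.99 to 19.7 for the 3 troponin genes. The longest transcript of *Tnni3* has 912 bases against 2.063 kb of exon, so its place below *Actc1* depends on the length used. *Actc1* had 71.5, 33.3 and 78.3 CPM in WT and 78.1, 56.4 and 54.6 CPM in CharmeKO. WT replicate 3 was the highest library and WT replicate 2 the lowest, and the log2 fold change was 0.05 ± 0.26 (SE; adjusted p = 0.957 in edgeR).

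None of the 13 genes of titin, the Z-disc and the M-band passed the threshold in edgeR, against 0.83% of all tested genes. An unadjusted p under 0.05 was found for 6, all higher in CharmeKO, against 5.9% of all tested genes higher. The median log2 fold change was 0.42. Summed, they had between 141 and 149 CPM in WT and between 152 and 225 CPM in CharmeKO. The highest of them in mean CPM, *Myom1*, a myosin cross-linker of the M-band, had 27.2, 32.6 and 29.2 CPM in WT and 40.1, 30.7 and 25.6 CPM in CharmeKO, with overlapping groups. *Tcap*, the titin cap of the Z-disc, had 22.7, 25.9 and 23.8 CPM in WT and 37.9, 22.9 and 31.0 CPM in CharmeKO. In both genes CharmeKO replicate 1 was the highest library and CharmeKO replicate 2 fell among the WT values. For *Myom1*, CharmeKO replicate 3 was the lowest of all libraries.

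Among the members of this group with an unadjusted p under 0.05, 4 had CharmeKO libraries that all exceeded the WT libraries. They were the only ones of the 13 to do so, and the share over all tested genes was 9.57%. *Xirp2*, an actin-binding protein of the intercalated disc, gave the largest log2 fold change of all 35, with 1.79, 0.99 and 1.08 CPM in WT and 4.09, 3.85 and 2.04 CPM in CharmeKO (1.33 ± 0.40 SE; edgeR, adjusted p = 0.195). *Ankrd1*, a stretch-responsive titin partner, had 1.88, 2.44 and 3.01 CPM in WT and 5.66, 5.44 and 3.06 CPM in CharmeKO (0.98 ± 0.33 SE; edgeR, adjusted p = 0.250), so that its lowest CharmeKO and highest WT library nearly met. *Csrp3*, the muscle LIM protein, had 7.17, 6.28 and 7.64 CPM in WT against 13.8, 9.45 and 8.68 CPM in CharmeKO (0.61 ± 0.21 SE; adjusted p = 0.271 in edgeR). *Actn2*, the alpha-actinin that anchors thin filaments in the Z-disc, had 10.96, 10.5 and 8.50 CPM in WT against 14.7, 14.7 and 11.2 CPM in CharmeKO (0.42 ± 0.18 SE; adjusted p = 0.350 in edgeR).

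In the other 2, CharmeKO replicate 3 fell among the WT libraries. *Ttn*, titin itself, had 4.99, 1.90 and 4.30 CPM in WT and 9.05, 9.98 and 3.92 CPM in CharmeKO (1.04 ± 0.40 SE; edgeR, adjusted p = 0.309). *Nebl*, the cardiac nebulin relative of the Z-disc, had 9.69, 9.63 and 8.82 CPM in WT and 17.2, 18.9 and 9.28 CPM in CharmeKO (0.68 ± 0.24 SE; edgeR, adjusted p = 0.269). The remaining 5 of the group had log2 fold changes from -0.13 in *Xirp1* to 0.42 in *Myom2*, with *Smpx* at 0.11, *Myoz2* at 0.24 and *Ldb3* at 0.38, and adjusted p-values in edgeR from 0.517 to 0.939.

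Of the 6 calcium handling genes tested, 0 passed the threshold in edgeR, against 0.83% of all tested genes. An unadjusted p under 0.05 was found for 3, all higher in CharmeKO, against 5.9% of all tested genes higher. The median log2 fold change was 0.33. *Pln*, phospholamban, had 45.9, 35.4 and 39.1 CPM in WT and 92.5, 56.3 and 48.3 CPM in CharmeKO, without overlap and with CharmeKO replicate 1 far above the rest (0.71 ± 0.21 SE; edgeR, adjusted p = 0.195). *Ryr2*, the ryanodine receptor, had 3.32, 2.59 and 3.12 CPM in WT and 5.20, 7.36 and 3.59 CPM in CharmeKO, also without overlap (0.84 ± 0.30 SE; edgeR, adjusted p = 0.284). *Hrc*, a calcium-binding protein of the store, had 4.82, 4.79 and 7.42 CPM in WT and 7.93, 8.35 and 7.40 CPM in CharmeKO (0.51 ± 0.23 SE; adjusted p = 0.382 in edgeR), where WT replicate 3 reached the CharmeKO values.

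*Atp2a2*, the SERCA2 pump, whose values by library are given above, had means of 353 ± 18.8 CPM in WT and 339 ± 21.99 CPM in CharmeKO (SD, n = 3 each) and a log2 fold change of -0.06 ± 0.12 (SE; edgeR, adjusted p = 0.883). *Casq2*, calsequestrin, which buffers calcium in the store, had 45.8, 40.3 and 41.5 CPM in WT and 47.1, 51.8 and 43.3 CPM in CharmeKO (0.15 ± 0.12 SE; adjusted p = 0.632 in edgeR). *Trdn*, triadin, which links calsequestrin to the release channel, lay between 0.913 and 2.06 CPM in the 6 libraries and had a log2 fold change of 0.04 ± 0.46 (SE; adjusted p = 0.979 in edgeR). *Sln*, sarcolipin, a pump inhibitor of the atria, was not tested, with 3 counts in WT replicate 2 and 0 in every other library.

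Of the natriuretic peptide genes, *Nppa* had 1.08, 2.85 and 0.430 CPM in WT and 3.53, 1.43 and 1.88 CPM in CharmeKO, with overlapping groups (0.58 ± 0.57 SE; edgeR, adjusted p = 0.739), and its log2 fold change was 1.43 without WT replicate 2 and 0.13 without CharmeKO replicate 1. *Nppb* was not tested, with 2, 0 and 0 counts in WT and 0, 7 and 14 counts in CharmeKO. The within-group SD of *Nppa* was 1.01 on the log2 scale, against a median of 0.278 over the tested members. Such a spread limits what the test of *Nppa* can detect, and no difference was assessed for *Nppb*.

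Genes of oxygen and energy supply had the highest median of the role groups with more than 1 tested gene, a log2 fold change of 0.71 over 4 genes. *Mb* (ENSMUSG00000018893), myoglobin, had 120.5, 94.4 and 105.5 CPM in WT and 243, 207 and 150.5 CPM in CharmeKO. The groups did not overlap, the means were 107 ± 13.1 and 200.1 ± 46.6 CPM (SD, n = 3 each), and the log2 fold change was 0.90 ± 0.17 (SE; edgeR, adjusted p = 0.0339). With the term for the *Xist* and Y-linked split edgeR gave a log2 fold change of 0.75 and an adjusted p of 0.0338. Adjusted p-values in edgeR ran from 0.0753 to 0.198 and log2 fold changes from 0.74 to 1.00 when WT replicate 1, WT replicate 3, CharmeKO replicate 1 or CharmeKO replicate 2 was left out.

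*Ckmt2*, the mitochondrial creatine kinase of striated muscle, had 5.43, 5.82 and 5.81 CPM in WT and 10.3, 10.6 and 8.42 CPM in CharmeKO, a clear gap between the groups (0.79 ± 0.19 SE; edgeR, adjusted p = 0.104). *Fabp3*, the heart fatty acid binding protein, had 16.98, 13.1 and 11.8 CPM in WT and 26.5, 21.9 and 17.3 CPM in CharmeKO (0.63 ± 0.19 SE; edgeR, adjusted p = 0.195), and 29.2% of the 50-base stretches of its transcript also occur in another gene, chiefly its pseudogene *Fabp3-ps1*. *Ckm*, the cytosolic creatine kinase of muscle, had 34.7, 36.3 and 33.9 CPM in WT and 48.3, 36.1 and 39.7 CPM in CharmeKO, with 1 CharmeKO library inside the WT range (0.24 ± 0.13 SE; adjusted p = 0.470 in edgeR).

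**Figure D3:**
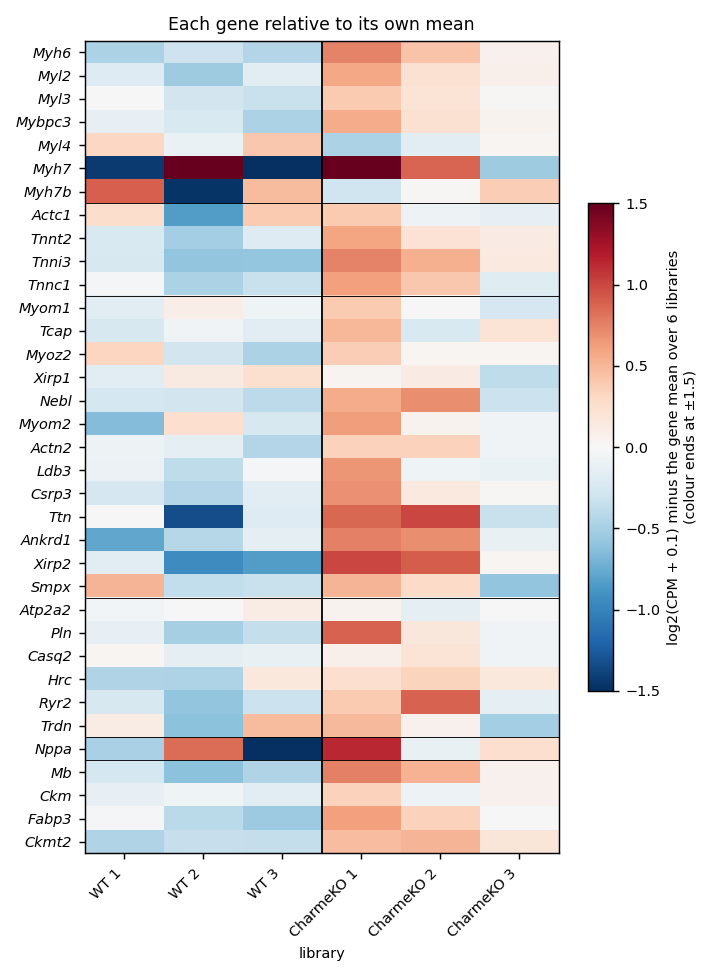
Each of the 35 tested genes (rows, ordered by role) in the 6 libraries (columns), as log2(CPM + 0.1) minus the mean of the gene over the libraries, with colours ending at ±1.5. CharmeKO replicate 1 is the highest library for 22 of the 35 genes, and CharmeKO replicate 3 for 0.

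The libraries contributed unequally to these differences. CharmeKO replicate 1 was the highest library for 22 of the 35 tested genes, CharmeKO replicate 2 for 7, WT replicate 3 for 4 and WT replicate 1 for 2. The lowest value fell in WT replicate 2 for 16 genes, in WT replicate 3, the shallowest library, for 9 and in WT replicate 1 for 5. Without CharmeKO replicate 1, 26 of 35 fold changes were positive, the median log2 fold change was 0.36, 11 genes had an unadjusted p under 0.05 in edgeR, against 8.61% of all genes tested in that fit, and 0 were called. Leaving out WT replicate 3 or CharmeKO replicate 2 also left 0 calls in edgeR, with 18 and 15 genes at an unadjusted p under 0.05, against 8.73% and 7.87% of all genes tested, and medians of 0.44 and 0.52, and 1 call, *Tnni3*, remained without WT replicate 1.

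Within the libraries that carry *Xist*, 1 WT against 2 CharmeKO, 28 of the 35 genes were above the WT library in both CharmeKO libraries and 3 were below it, against 36.5% and 36.2% of all tested genes. Within the libraries with Y-linked RNA, 2 WT against 1 CharmeKO, 20 genes were above both WT libraries and 4 were below, against 31.3% and 29.7% of all tested genes. Both held for 19 genes above, against 15% of all tested genes. *Tnni3*, *Mb*, *Myh6*, *Tnnt2*, *Myl2* and *Pln* lay above WT in both comparisons. These within-split values have too few libraries for a test.

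Ratios of counts between genes within a library, with 1 added to each count, do not depend on the scaling of the library, but where a count is 0 or close to it they depend on depth and on the added count. The log2 ratio of *Pln* to *Atp2a2* was -2.88, -3.29 and -3.26 in WT and -1.95, -2.48 and -2.84 in CharmeKO, a difference of 0.72 without overlap (two-sided exact permutation p = 0.1, and 0.2 after Benjamini-Hochberg adjustment over 4 ratios). Such a ratio is free of the amount of cardiomyocyte RNA only if both genes come from cardiomyocytes alone, and *Atp2a2* is made by nearly all cells. The difference is close to the log2 fold change of *Pln* itself, 0.71, beside -0.06 for *Atp2a2*. The log2 ratio of the atrial *Myl7* to the ventricular *Myl2* was -8.32 ± 1.73 in WT and -11.18 ± 0.30 in CharmeKO (SD, n = 3 each; exact permutation p = 0.1, adjusted 0.2). It rests on 0 counts of *Myl7* in every CharmeKO library, where it follows the count of *Myl2* alone, and its difference of -2.86 was -3.61 with 0.5 added in place of 1. The log2 ratio of *Myh6* to *Myh7* was 7.76 ± 2.13 in WT and 7.06 ± 0.97 in CharmeKO (exact permutation p = 0.7, adjusted 0.8), with 0 counts of *Myh7* in WT replicate 3. Its difference of -0.70 was -1.04 with 0.5 added in place of 1, -1.93 without WT replicate 2 and -0.04 without WT replicate 3. That of *Nppb* to *Nppa* was -4.18 ± 1.97 in WT and -3.60 ± 2.66 in CharmeKO (exact permutation p = 0.8, adjusted 0.8), with 0 counts of *Nppb* in 3 libraries. With 3 libraries against 3, an exact permutation test cannot go below p = 0.1 for any of the 4.

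A further 60 genes of cardiomyocytes, outside the 38, were read for comparison. Of 55 tested, 1 was called higher and 0 lower in edgeR, against 0.418% and 0.412% of all tested genes. At an unadjusted p under 0.05, 9 were higher and 4 lower, against 5.9% and 6.87%. Fold changes were positive for 35, with a median of 0.15 on the log2 scale. The CharmeKO libraries all lay above the WT libraries for 12 and below them for 4, against 9.57% and 8.59% of all tested genes. Those 4 were *Acta1*, *Flnc*, *Cacna1c* and *Fbxo32*. Their log2 fold changes were -1.20, -0.59, -0.39 and -0.35 (edgeR, adjusted p = 0.270, 0.0763, 0.291 and 0.362). The one called was *Hspb7*, a small heat shock protein of heart muscle, with 16.01, 14.7 and 18.8 CPM in WT and 35.5, 29.7 and 28.6 CPM in CharmeKO (0.93 ± 0.15 SE; edgeR, adjusted p = 0.0110), which became 0.0689 on leaving out WT replicate 1 and 0.0894 on leaving out CharmeKO replicate 1. The medians were 0.12 for 21 further sarcomere and cytoskeleton genes, 0.15 for 11 further calcium handling genes, 0.02 for 11 ion channel and intercalated disc genes and 0.22 for 12 genes of muscle metabolism. Summed, the 60 genes had 1605, 1583 and 1622 CPM in WT and 1769, 1656 and 1701 CPM in CharmeKO, so that all CharmeKO libraries lay above all WT libraries. Of the sublists, the ion channel and intercalated disc genes did not overlap either, with 298 to 327 CPM in WT and 346 to 414 CPM in CharmeKO, and the other 3 sublists overlapped. *Gja1* alone gave 225, 234 and 206 CPM in WT and 236, 312 and 318 CPM in CharmeKO. Without it, both the sums of the whole list and those of the ion channel sublist overlap between the genotypes. Many of these genes, such as *Tpm1*, *Gja1* and *Flnc*, are also made by other cells of the heart.

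**Figure D4:**
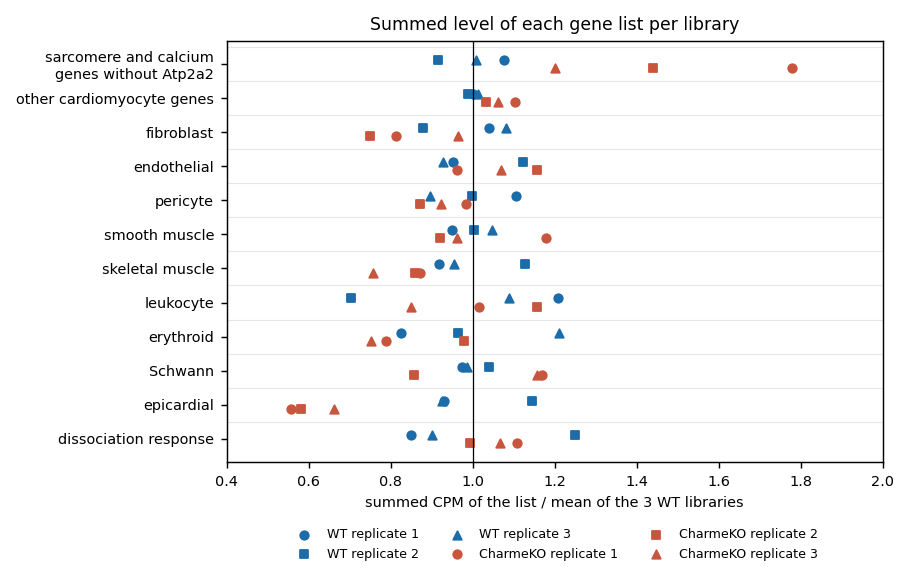
Summed CPM of each gene list in each library, divided by the mean of the 3 WT libraries (line at 1), for the 37 genes other than *Atp2a2*, 60 other cardiomyocyte genes and the marker lists of other cells. The CharmeKO libraries of the top 2 rows lie to the right of all WT libraries, and those of the epicardial and skeletal muscle lists lie to the left. This does not hold for the other cardiomyocyte genes without *Gja1*, for the epicardial list without *Wt1* or for the skeletal muscle list without *Tnnt3*.

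Marker lists of other cells were read in the same libraries. Skeletal muscle, which shares many sarcomere genes with the heart, gave 7.67 to 9.40 CPM over 12 markers in WT and 6.32 to 7.27 CPM in CharmeKO, with *Myh4* at 0 in all libraries and *Myh1* and *Myh2* each found in 1 library. Of its 5 tested markers 0 were called in edgeR, and 0 had an unadjusted p under 0.05, against 12.8% of all tested genes. Without *Tnnt3*, the sums of this list overlap between the genotypes. The 4 epicardial markers summed to 56.4 to 69.7 CPM in WT and to 34.0 to 40.3 CPM in CharmeKO. Most of this was *Wt1*, with 52.55, 53.6 and 46.2 CPM in WT and 33.3, 31.2 and 32.3 CPM in CharmeKO. *Wt1* fell by 0.66 on the log2 scale (edgeR, adjusted p = 0.0189). *Upk3b*, *Msln* and *Krt19* had negative fold changes with overlapping groups, and without *Wt1* the epicardial sums overlap between the genotypes. The 7 fibroblast markers gave 0 calls in edgeR and 3 with an unadjusted p under 0.05, against 12.8% of all tested genes. Of these 3, *Col1a1* and *Col1a2* had log2 fold changes of -0.77 and -0.54 (edgeR, adjusted p = 0.189 and 0.269) and *Dcn* of 0.29 (edgeR, adjusted p = 0.381). DESeq2 called *Col1a1* lower (adjusted p = 0.0102).

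Lists of endothelial (5466 to 6624 CPM in WT, 5678 to 6824 in CharmeKO), pericyte (1887 to 2328 and 1836 to 2073), smooth muscle (1161 to 1280 and 1125 to 1442), leukocyte (25.9 to 44.4 and 31.2 to 42.5), Schwann (7.12 to 7.61 and 6.26 to 8.56) and erythroid markers (26770 to 39210 and 24410 to 31740) overlapped between the genotypes and held 0 called genes in edgeR. In that order, the unadjusted p in edgeR was under 0.05 for 2 of 7, 2 of 7, 1 of 7, 0 of 6, 0 of 3 and 1 of 5 tested genes. The share over all tested genes was 12.8%. Among 8 genes of the response to dissociation, the heat shock gene *Hspa1a* rose, with 943, 509 and 790 CPM in WT and 1654, 1810 and 2054 CPM in CharmeKO (log2 fold change 1.30 ± 0.21 SE; edgeR, adjusted p = 0.0116). The other 7 lay between -0.17 and 0.22 on the log2 scale with no unadjusted p under 0.05, and the sums over the 8 genes overlapped, with 22330 to 32810 CPM in WT and 26110 to 29140 CPM in CharmeKO. The part of these shifts, of the *Xist* and Y-linked split and of the amount of cardiomyocyte RNA carried into each preparation in the differences of the 38 genes was not tested.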

How the data were processed

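Native CF RNA from 3 WT and 3 CharmeKO samples was measured. The authors aligned reads with STAR to a mouse genome, counted them per gene on the "reverse" strand with an Ensembl release 87 annotation extended by *Charme*, and deposited raw counts with no normalization. The 4058 rows with an identifier but no symbol stayed in the fit. Total counts ranged from 9595701 to 42101393.

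Genes reaching 10 counts in 2 or more libraries were tested on the whole table with edgeR 4.0.16 (R 4.3.3; TMM, quasi-likelihood test, Benjamini-Hochberg adjustment, threshold 0.05); SEs come from the F statistic. The common biological coefficient of variation was 20.2%. DESeq2 1.42.0, the test named in the study's methods, other filters and size factors, a replicate block, a term for the *Xist* and Y-linked split and leaving out each library were alternatives. Ratios used SciPy 1.17.1. Exon lengths and shared 50-base stretches came from GENCODE mouse release 21 on GRCm38, and start sites from RefSeq GRCm38.p6. The build behind the counts is not settled by the sources used here, and no coordinate was joined to the counts.

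All 38 members are accounted for. Values in every library are given for members past the threshold or with an unadjusted p under 0.05, the 2 most abundant of each role group and the ratio members. The members, the further cardiomyocyte genes and the marker lists were chosen with earlier results of these data known.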

Additional observations from a re-analysis of the deposited data

How the results depend on the processing

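The number of the 38 genes called, 3 in the fit reported, was 3 with DESeq2's size factors, with filterByExpr and with a filter of 10 counts in 5 libraries, 2 with the *Xist* and Y-linked term, 7 with the DESeq2 test, 13 of 38 with no gene filter, and from 0 to 4 with each library left out; all calls were higher in CharmeKO. With the replicate number as a block it was 7; deviations of same-numbered libraries correlated at 0.137, 0.007 and 0.106, WT replicate 2 correlated best with CharmeKO replicate 3, and the numbers are not shown to pair the samples. Over all tested genes the calls numbered 131, and 394 with the DESeq2 test, 699 with no gene filter, 302 with the block and 61 to 349 with each library left out. Without WT replicate 2 the 349 calls were the most, and without CharmeKO replicate 1 the 61 the fewest. The other cardiomyocyte genes called, 1, became 2 with the DESeq2 test, no filter or the block and 0 to 2 with a library left out, and the marker genes called, 2, became 5, 6 and 4 in turn and 0 to 4. Directions turned for *Myh7b* with the block (0.0144), *Actc1* (-0.0491), *Smpx* (-0.18) and *Trdn* (-0.14) with the *Xist* and Y-linked term, and with single libraries left out *Myh7* (-0.0777 to 3.66), *Actc1* (-0.25 to 0.26), *Smpx* (-0.12 to 0.52), *Xirp1* (-0.24 to 0.0093), *Myom1* (-0.0705 to 0.26), *Trdn* (-0.24 to 0.28) and the log2 ratio of *Nppb* to *Nppa* (-0.45 to 2.12). The cause was not tested. Of the alternative values of single genes, 406 kept direction and side of the threshold, 19 passed it newly and 12, of *Tnni3*, *Mb* and *Myh6*, lost it. The summed level ratio of 1.31 ranged from 1.20 to 1.40 and that without *Atp2a2*, 1.47, from 1.32 to 1.61 with each library left out. The setting for *Atp2a2* and the counts for the 2 other lists were added after the data were seen. Depth limits *Myh7*, *Myh7b*, *Myl7*, *Sln*, *Nppa* and *Nppb*, which have under 10 counts in at least 1 library.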
